A study of Mus musculus with 64 samples.

Results

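The genes for chemokines and interleukins (Ccl28, Ccl27a, Ccl25, Ccl17, Cx3cl1, Cxcl12, Cxcl14, Il1f9, Il33 and Il34) were followed by symbol through the hippocampus RNA-seq libraries of 8 inbred mouse strains. They are 10 of 32227 genes in the count table, and all 10 were among the 17382 genes with enough counts to be tested. They were chosen by earlier results from the same data, selected on measured strain levels: high Ccl28 in NOD/ShiLtJ, low Ccl27a in A/J and high Il1f9 in WSB/EiJ. The strain levels of those 3 genes are therefore given as a description, with no test. Strain tests are given for the 7 others, and tests of sex for all 10.

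The libraries came from whole hippocampus of females and males, 4 libraries of each sex, of the classical inbred strains C57BL/6J, 129S1/SvImJ, NOD/ShiLtJ, A/J and NZO/HlLtJ and the wild-derived strains CAST/EiJ, PWK/PhJ and WSB/EiJ, which makes 64 libraries in 16 groups. No agent or engineered allele is named for any group, and the labels used here give no age. They do not say whether the libraries of a group came from separate animals, so the p-values measure the spread between these samples only. Levels are in CPM, the standard depth-normalised read count, after scaling by the trimmed mean of M values.

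Chemokines are small secreted or membrane-tethered proteins that bind G protein-coupled receptors and guide the movement of cells. Interleukins of the IL-1 family, such as Il33 and Il1f9, are alarm signals of barrier and glial cells, and Il34 is a survival factor for microglia through the receptor Csf1r. In the hippocampus the neuronal Cx3cl1, the stromal and neuronal Cxcl12, the glial Il33 and the neuronal Il34 are long-known signals between neurons, glia and microglia, whereas Ccl25, Ccl27a and Ccl28 are best known from thymus, gut and skin.

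Library totals ran from 16607602 to 27759221 counts. Every library resembled a library of its own strain most. The libraries with the lowest median correlation to their own group were A/J male 2 (0.978), 129S1/SvImJ female 1 (0.981) and NOD/ShiLtJ female 1 (0.984). A/J male 2, 129S1/SvImJ female 1 and C57BL/6J male 4 (0.9845) were left out together, which changed no call made for the 10 genes. NOD/ShiLtJ female 1 was left out only on its own. Markers of neurons and glia were present throughout: the summed level of 10 microglial markers lay between 320 and 506 CPM and that of 8 astrocyte markers between 1784 and 2675 CPM. Choroid plexus markers varied most, from 126 to 6886 CPM, and meningeal fibroblast markers ran from 85.7 to 423 CPM. Of 6 T-cell markers, Cd3e, Cd3d, Cd3g and Cd8a had a median count of 0 and the summed level was 0.43 to 2.02 CPM. Of 5 neutrophil markers none passed the filter, Camp and Ly6g had a median count of 0, and the sum was 0 to 2.07 CPM.

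Per kilobase of exon, Cx3cl1 was the most abundant of the 10 transcripts, with a mean over the 64 libraries of 158 CPM per kilobase. Cxcl14 followed at 45.2, Il34 at 21, Il33 at 17.6, Ccl27a at 10.2 and Cxcl12 at 8.65 CPM per kilobase. Ccl17 stood at 2.77, Il1f9 at 1.62, Ccl25 at 0.91 and Ccl28 at 0.519 CPM per kilobase. The length was that of all exons of a gene merged in GENCODE M21, on GRCm38, a different build from that of the counts. The order depends on it: in CPM, Cxcl12 (mean 70.7, 8176 bases) was above Il33 (50.9), Il34 (41.1) and Ccl27a (24.2). No library had a count of 0 for any of the 10, but the lowest count was 1 for Ccl28, Ccl17 and Il1f9.

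Ccl28 is a chemokine of mucosal epithelia that binds Ccr10 and Ccr3, and Il1f9, also called Il36g, is an IL-1 family agonist of skin and airway epithelium that binds Il1rl2. Their start-site windows are shown because these 2 genes have the widest strain ranges of the 10. The windows run from 250 bases before to 50 bases after the start site in RefSeq on GRCm38.p6, a different build from that of the counts. In the Ccl28 window (chr13:119623569-119623868, plus strand) capitals mark the GC box GGGCGG, whose first base is at -64, and an AP-1 motif, TGAGTCA, at +21. In the Il1f9 window (chr2:24186226-24186525, plus strand) capitals mark a match to the STAT motif TTCNNNGAA at -128.
Ccl28: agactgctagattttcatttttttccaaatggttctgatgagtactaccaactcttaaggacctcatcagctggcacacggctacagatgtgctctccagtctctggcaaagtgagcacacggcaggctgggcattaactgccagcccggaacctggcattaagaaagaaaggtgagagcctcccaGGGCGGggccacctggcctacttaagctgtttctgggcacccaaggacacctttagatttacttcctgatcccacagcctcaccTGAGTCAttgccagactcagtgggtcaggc
Il1f9: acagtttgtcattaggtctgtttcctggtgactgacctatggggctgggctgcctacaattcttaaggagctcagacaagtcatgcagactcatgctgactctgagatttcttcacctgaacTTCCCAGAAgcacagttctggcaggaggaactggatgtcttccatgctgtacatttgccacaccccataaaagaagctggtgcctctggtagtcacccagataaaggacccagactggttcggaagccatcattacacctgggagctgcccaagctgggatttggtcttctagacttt
Both strands were searched for 6 motifs in 32544 windows of the same length, and 9 of the 10 genes, all but Il34, had a window. GGGCGG was present in 35.9% of all windows and in those of Ccl27a, Ccl28, Cx3cl1, Cxcl12 and Cxcl14. TGACTCA, which reads TGAGTCA on the other strand, was present in 5.19% of all windows and in those of Ccl27a and Ccl28. TTCNNNGAA was present in 8.33% of all windows and in those of Ccl17, Cxcl14 and Il1f9. TATAAA was present in 13.6% of all windows (Ccl25, Cx3cl1 and Il33 here) and CCAAT in 37.4% (Ccl25, Ccl27a and Il33 here). The NF-kappaB motif was present in 0.157% of all windows and in 0 of the 9. A gene was counted if any of its windows matched, and Ccl25, Ccl27a and Il33 had more than 1 window. The genes named are therefore not on the same footing as the shares of windows. A match gives letters only, and no binding was measured.

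Ccl28 was highest in NOD/ShiLtJ, where the lowest of 8 libraries had 7.91, the median 8.96 and the highest 14.6 CPM, from 190 to 332 counts. Every NOD/ShiLtJ library was above every library of the other strains, the highest of which had 7.48 CPM. In bulk tissue, fewer cells of a type and less RNA per cell cannot be told apart, here and in all that follows. C57BL/6J came next (4.89 ± 0.786 CPM, SD, n = 8) and then A/J (3.38 ± 1.89 CPM, SD, n = 8), whose libraries overlapped and ran from 1.18 to 7.48 CPM. A gap without overlap separated these 3 strains from the other 5: the mean of A/J was 4.76 times that of PWK/PhJ (0.71 ± 0.204 CPM, SD, n = 8). WSB/EiJ (0.499 CPM), NZO/HlLtJ (0.405 CPM), 129S1/SvImJ (0.197 CPM) and CAST/EiJ (0.0901 CPM) followed, each overlapping the next. CAST/EiJ had 1 to 3 counts per library, so its level is little more than the presence of the transcript.

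**Figure D1:**
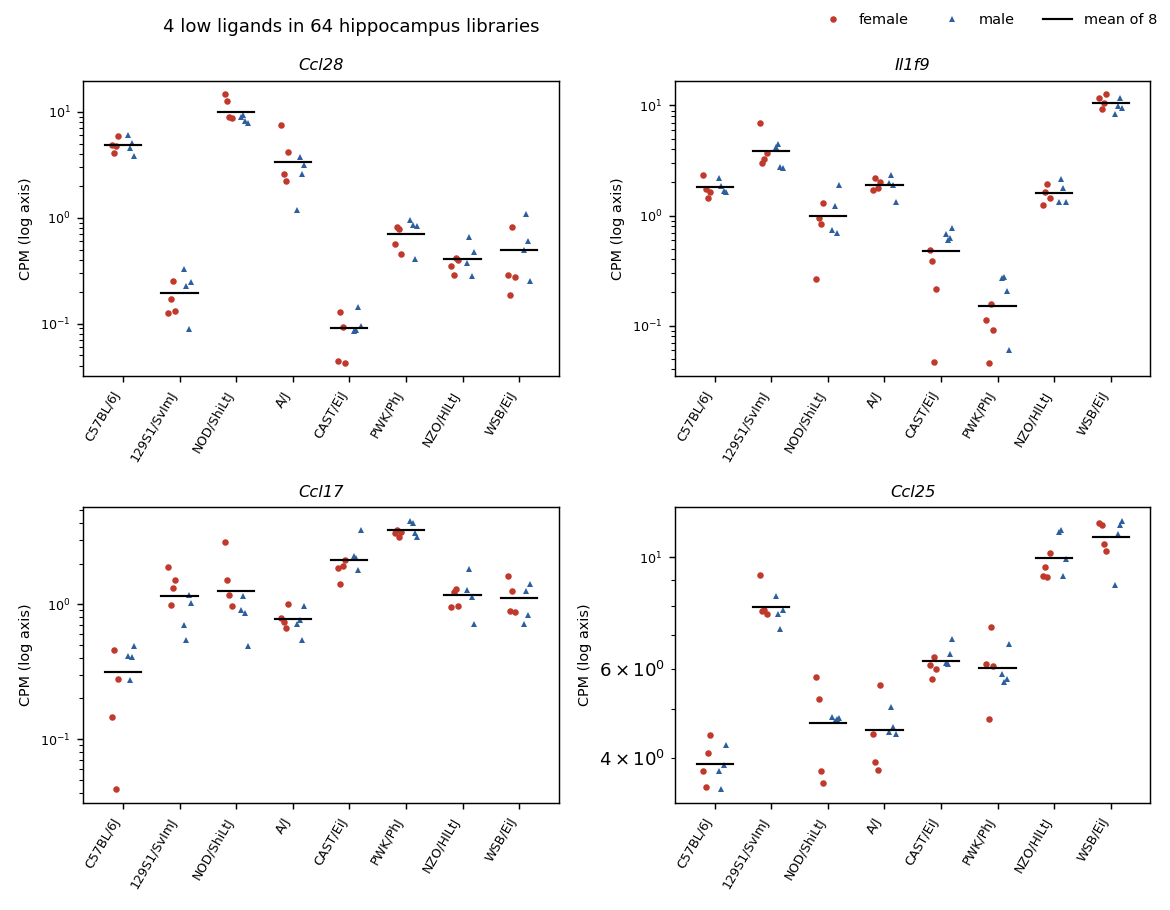
CPM (log axis) of Ccl28, Il1f9, Ccl17 and Ccl25 in each of 64 libraries by strain; circles are females, triangles males, and the black line is the mean of 8 libraries. The 8 NOD/ShiLtJ libraries of Ccl28 (7.91 to 14.6 CPM) and the 8 WSB/EiJ libraries of Il1f9 (8.39 to 12.6 CPM) lie above all others of their panel, and the 8 C57BL/6J libraries of Ccl17 lie below all others.

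Among the protein-coding genes tested, the one most like Ccl28 was its neighbour Tmem267, a membrane protein gene next to Ccl28 in the gene order of GRCm38. Its means had the same 4 strains at the top and CAST/EiJ at the bottom as those of Ccl28, whereas WSB/EiJ stood lower in the order. Tmem267 had means of 36.9 CPM in NOD/ShiLtJ, 34.4 in C57BL/6J and 32.9 in A/J, against 20.3 in PWK/PhJ, 15.8 in NZO/HlLtJ, 13.6 in 129S1/SvImJ, 12.2 in WSB/EiJ and 6.8 in CAST/EiJ. Over 64 libraries, which share strain and depth, r of log2 CPM between the genes was 0.90, and 0.25 once the mean of each strain and sex was removed. The next most alike were Trem2, a microglial surface receptor (r = 0.84), and Slc5a5, the iodide transporter (0.83), at -0.06 and -0.08 without the group means. Hmgcs1, the neighbour on the other side and an enzyme of cholesterol synthesis, had r = -0.54, and -0.15 without the group means.

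**Figure D2:**
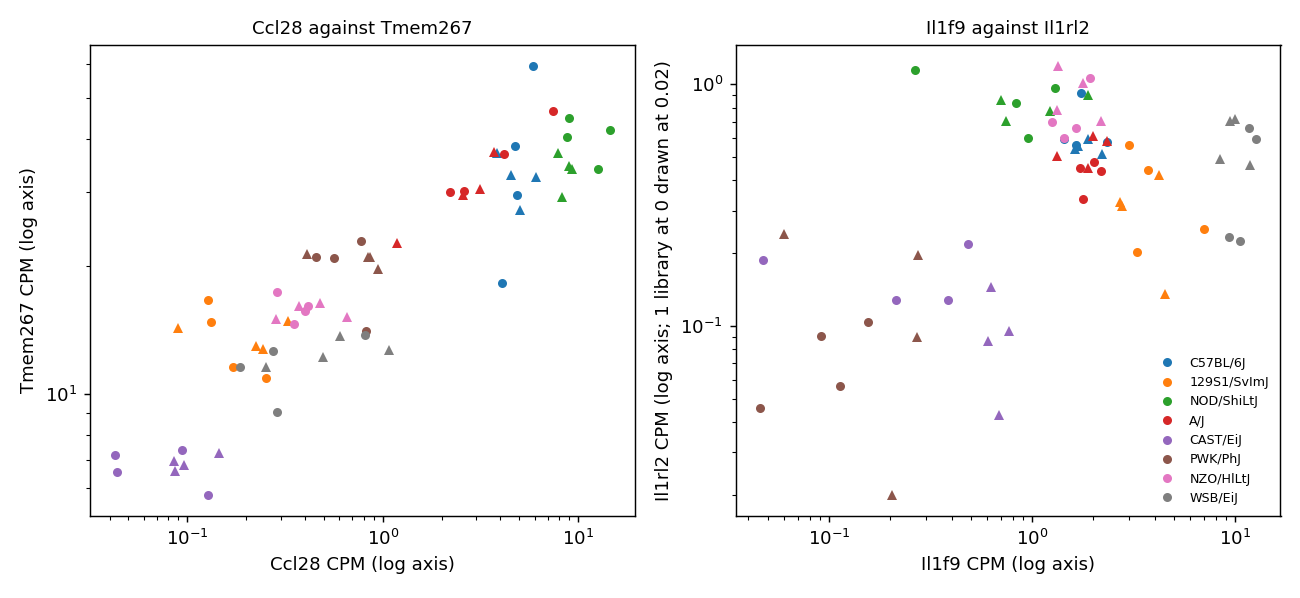
Left, CPM of Ccl28 against its neighbour Tmem267, and right, CPM of Il1f9 against its receptor Il1rl2, in 64 libraries coloured by strain on log axes; circles are females, triangles males, and 1 library with no Il1rl2 count is drawn at 0.02 CPM. NOD/ShiLtJ, C57BL/6J and A/J form the upper right group for Ccl28 and Tmem267, while CAST/EiJ and PWK/PhJ are low in both Il1f9 and Il1rl2.

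Il1f9 was highest in WSB/EiJ, with 8.39 CPM in the lowest, 10.2 in the median and 12.6 in the highest library. These 8 libraries were above all others, the highest of which was a 129S1/SvImJ female at 6.97 CPM. The 129S1/SvImJ mean (3.9 ± 1.4 CPM, SD, n = 8) was exceeded 2.68 times by the WSB/EiJ mean and was 2.05 times that of A/J (1.9 ± 0.304 CPM, SD, n = 8), again without overlap. A/J, C57BL/6J (1.81 CPM) and NZO/HlLtJ (1.61 CPM) overlapped, followed by NOD/ShiLtJ (0.986 CPM) and CAST/EiJ (0.476 CPM). PWK/PhJ was lowest, at 0.0458, 0.134 and 0.274 CPM in the lowest, median and highest library, which came from 1 to 7 counts. The fitted log2 difference from the other 7 strains was 3.31 in WSB/EiJ and 1.68 in 129S1/SvImJ, and -3.67 in PWK/PhJ and -1.90 in CAST/EiJ. Of the 50-base stretches of the Il1f9 transcripts, 7.11% also occur in Gm15983 on the opposite strand, and the sources do not say whether counting used strand, so reads of the pair may be mixed. The genes most like Il1f9 were Anapc16, a subunit of the anaphase-promoting complex (r = 0.85 over 64 libraries), Vps29 of the retromer (0.85) and Capsl (0.84), with 0.18, 0.08 and -0.25 after removal of group means. The gene beside it, Hnmt, which inactivates histamine, had r = -0.71, and 0.17 after removal of group means.

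Ccl27a encodes a skin chemokine that attracts T cells through Ccr10, and from an upstream start a longer protein. Its transcripts are the only ones of the 10 genes with extensive near-identical copies: 45% of their 2677 stretches of 50 bases occur in another gene, 28.4% in Gm20878, 22% in Gm13306 and 8.63% in Ccl27b. Pairs of sequences from GENCODE M21 (GRCm38, chromosome 4) are shown because they set how well reads can be assigned, with capitals at the bases that differ. The first pair comes from the coding sequence of the secreted chemokine, without its stop codon. The copies were aligned from their ends over 357 bases, and bases 151 to 357 of these are shown.
Ccl27a: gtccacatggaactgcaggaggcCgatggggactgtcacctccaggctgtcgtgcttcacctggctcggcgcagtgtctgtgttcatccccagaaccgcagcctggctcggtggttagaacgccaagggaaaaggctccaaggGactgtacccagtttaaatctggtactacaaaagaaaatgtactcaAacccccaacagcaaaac
Gm13306: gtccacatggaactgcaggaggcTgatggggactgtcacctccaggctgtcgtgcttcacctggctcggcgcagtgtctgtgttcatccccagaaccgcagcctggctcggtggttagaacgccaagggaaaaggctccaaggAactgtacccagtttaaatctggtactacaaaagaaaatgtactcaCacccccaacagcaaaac
Over the aligned stretch they differ at 3 of 357 bases (C174T, G294A and A340C, counted from the first aligned base, Ccl27a first) and are 99.2% identical. Ccl27b was identical to Gm13306 over the same 357 bases. The second pair is the first 2 coding exons of the transcript with the upstream start, which differ at 2 of 107 bases and are 98.1% identical.
Ccl27a: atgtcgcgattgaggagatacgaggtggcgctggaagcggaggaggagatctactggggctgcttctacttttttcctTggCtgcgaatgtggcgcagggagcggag
Gm20878: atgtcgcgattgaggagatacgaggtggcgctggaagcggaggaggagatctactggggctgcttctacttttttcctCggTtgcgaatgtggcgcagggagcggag
Within these stretches a read that covers none of the differing bases cannot tell the copies apart, and how the authors' counting treated such reads is not given, so the split of the level between the copies is uncertain.

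Ccl27a was lowest in A/J, with 4.78 CPM in the lowest, 6.39 in the median and 9.39 in the highest library. All 8 A/J libraries were below all others, the lowest of which had 18.7 CPM in PWK/PhJ. PWK/PhJ (21.4 ± 1.78 CPM, SD, n = 8), CAST/EiJ (23.5 ± 2.38), NOD/ShiLtJ (27.2 ± 1.83), C57BL/6J (28.1 ± 2.39), WSB/EiJ (28.6 ± 4.22), 129S1/SvImJ (28.8 ± 4.94) and NZO/HlLtJ (29.2 ± 1.5) overlapped each with the next. The mean of the 7 other strains was 4.05 times that of A/J, and the fitted log2 difference was -2.01.

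The copies did not follow Ccl27a across strains. Gm20878 rose in NOD/ShiLtJ (16.6 ± 1.15 CPM, log2 1.77, SE 0.0644, adjusted p = 8.7e-31) and NZO/HlLtJ (18 ± 1.98 CPM, log2 1.91, SE 0.0638, adjusted p = 1.31e-32) against the other 7 strains, where 2.75% and 2.67% of all genes were called higher. In A/J it stood at 9.22 ± 0.681 CPM (log2 0.80), above its mean in each of the 5 remaining strains, which lay between 2.69 and 3.87 CPM. Gm13306 rose in the same 2 strains, by log2 1.34 in NOD/ShiLtJ and 1.56 in NZO/HlLtJ, and had 3.14 ± 0.846 CPM in A/J. Summed over Ccl27a and its copies, A/J had 19 ± 2.77 CPM (SD, n = 8), with single libraries from 15.8 to 24.5 CPM, against means of 27.5 to 52.7 CPM elsewhere. The deficit of A/J was thus smaller in the sum, 1.92 times against 4.05 times for Ccl27a alone. Ccl27a held 34.4% ± 3.33 of the summed level in A/J, 55.4% in NZO/HlLtJ and 56% in NOD/ShiLtJ, and 77.5% to 88.1% in the other 5 strains.

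**Figure D3:**
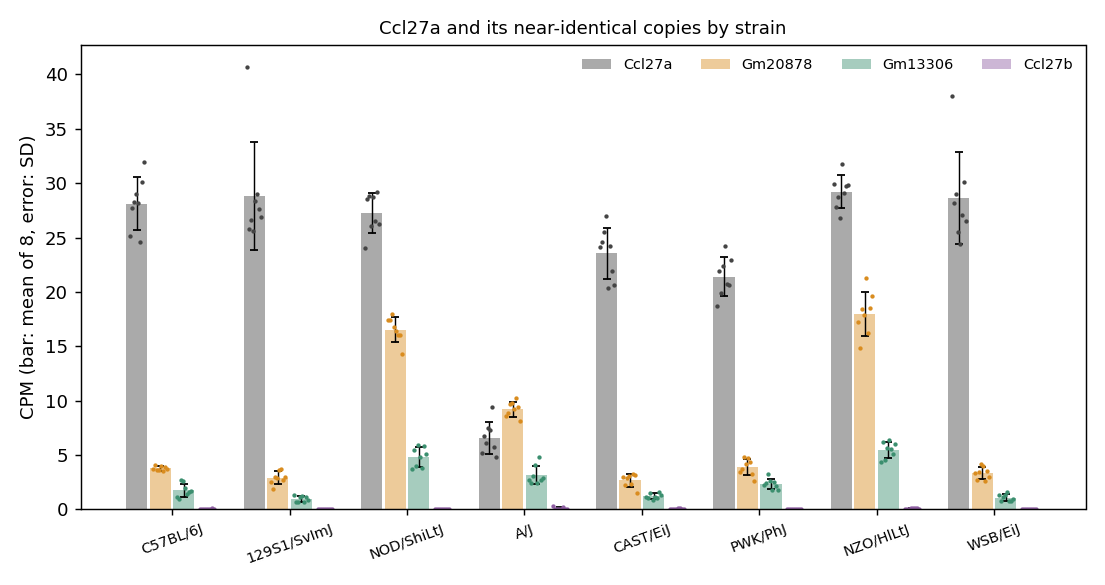
CPM of Ccl27a, Gm20878, Gm13306 and Ccl27b by strain; bars are means of 8 libraries, error bars SD and points single libraries, on a linear axis from 0. A/J has the lowest Ccl27a (6.59 CPM) with more Gm20878 (9.22 CPM), NOD/ShiLtJ and NZO/HlLtJ have the most Gm20878 (16.6 and 18 CPM), and Ccl27b is near 0 in all strains.

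Il11ra1, the receptor gene that overlaps Ccl27a on the opposite strand, had a log2 difference of 0.14 in A/J (adjusted p = 0.089). Between Ccl27a and Il11ra1, r was -0.16 over 64 libraries and 0.55 after removal of group means. The transcripts of Il11ra1 are not among those that share at least 1% of the 50-base stretches of Ccl27a. Il11ra2, a copy of that receptor gene, rose in NOD/ShiLtJ (log2 1.75, SE 0.286, adjusted p = 1.4e-06) and NZO/HlLtJ (2.09, SE 0.278, adjusted p = 1.28e-08), the strains with high Gm20878. Of all genes, 2.75% and 2.67% were called higher there. Whether Il11ra2 passed the filter on low counts only through these strains was not checked, so its calls support nothing by themselves. The sequence it shares with Il11ra1 was not measured, so the assignment of its reads is uncertain. The genes most like Ccl27a were Plch2, a phospholipase C on chromosome 4 (r = 0.93), Pcdhga11, a protocadherin (0.90), and Col4a6, a collagen (0.87). Each was lowest in A/J, at 49.6, 3.87 and 0.122 CPM, and after removal of group means r was 0.28, -0.48 and -0.31.

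Of the 7 genes given a strain test, Ccl25, Ccl17 and Il33 changed among strains by edgeR's quasi-likelihood F test, at an adjusted p under 0.05 and a log2 range of fitted strain means of at least 1. Over all genes, 27.6% were called by this rule and 89.2% passed at any range. The 7 genes had a median log2 range of 0.85 and all tested genes one of 0.55. Cxcl12 (log2 range 0.81, adjusted p = 2.29e-19), Cxcl14 (0.85, adjusted p = 1.26e-21), Cx3cl1 (0.38, adjusted p = 1.67e-09) and Il34 (0.29, adjusted p = 4.03e-05) passed the test but not the range. Of the 56 pairs of a gene and a strain set against the other 7 strains, 4 were called (Ccl17 in C57BL/6J, CAST/EiJ and PWK/PhJ, and Il33 in CAST/EiJ), where 5.27% of all such pairs over all genes were. These comparisons share libraries.

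**Figure D4:**
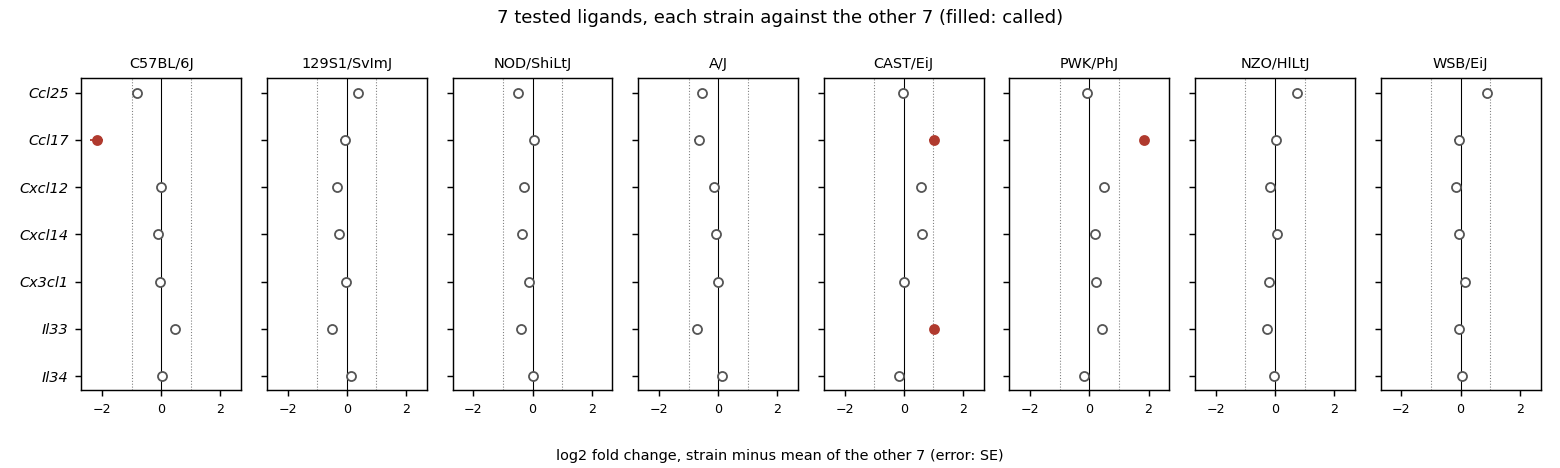
log2 fold change of 1 strain over the average of the remaining 7, for the 7 tested genes, with SE as error bars, in 1 panel per strain; dotted lines mark a log2 change of 1 either way and filled points are called. The called points are Ccl17 in C57BL/6J (-2.19), CAST/EiJ (1.01) and PWK/PhJ (1.85) and Il33 in CAST/EiJ (1.03).

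Ccl17, a ligand of Ccr4 made by dendritic cells and by some neurons, was highest in PWK/PhJ, with 3.13, 3.42 and 4.14 CPM in the lowest, median and highest library. In C57BL/6J the corresponding values were 0.0425, 0.344 and 0.488 CPM, from 1 to 11 counts. Every C57BL/6J library was below every other library, the lowest of which had 0.492 CPM. Ccl17 fell in C57BL/6J (log2 -2.19, SE 0.215, adjusted p = 1.32e-12; 1.56% of genes were called lower there). It rose in PWK/PhJ (1.85, SE 0.131, adjusted p = 2.32e-18; 3.75% called higher) and in CAST/EiJ (1.01, SE 0.143, adjusted p = 1.89e-08; 4.02% called higher), where the libraries ran from 1.41 to 3.54 CPM. The CAST/EiJ value is close to the limit of 1: it was 0.98 with a choroid plexus term in the model and 0.90 to 1.07 when single libraries were left out, under 1 in 12 of 64 cases. Between these extremes NOD/ShiLtJ (1.24 CPM), NZO/HlLtJ (1.17), 129S1/SvImJ (1.14), WSB/EiJ (1.11) and A/J (0.773) overlapped. The range among strains was 3.53 on the log2 scale (adjusted p = 3.71e-19). The summed level of 5 dentate granule neuron markers had its highest mean in C57BL/6J (402 CPM) and its lowest in PWK/PhJ (240 CPM), with r = -0.78 against Ccl17 over 64 libraries and -0.10 after removal of group means. For 8 oligodendrocyte markers r was -0.68 and -0.20. None of these markers had a median count of 0, and their part in the level of Ccl17 was not tested.

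Ccl17, Cx3cl1 and Ccl22 lie side by side in the gene order of GRCm38. Ccl22, the other ligand of Ccr4, had means of only 0.0846 CPM (CAST/EiJ) to 0.334 CPM (129S1/SvImJ), was called among strains (log2 range 1.91, adjusted p = 2.69e-05) with only 6 libraries at the minimum of the filter, and was lower in CAST/EiJ (-1.22, SE 0.357, adjusted p = 0.00293), where Ccl17 was higher. Over 64 libraries r was 0.37 between Ccl17 and Cx3cl1 and -0.19 between Cx3cl1 and Ccl22. Ciapin1, the gene on the other side of Ccl17 and a factor of iron-sulfur cluster assembly, was among the 3 most like it (r = 0.78, 0.19 after removal of group means). Its means were also lowest in C57BL/6J (51.1 CPM) and highest in PWK/PhJ (69.7 CPM). Ttyh1, a glial chloride channel family member (r = 0.82), and Ankrd42 (0.77) were the others, at 0.32 and 0.16 after removal of group means.

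Ccl25, the thymus and gut chemokine that binds Ccr9, was highest in WSB/EiJ (8.79, 11.3 and 11.8 CPM in the lowest, median and highest library) and NZO/HlLtJ (9.15, 9.75 and 11.3 CPM). It was lowest in C57BL/6J (3.46, 3.81 and 4.44 CPM). The libraries of WSB/EiJ and NZO/HlLtJ overlapped each other, and none of them overlapped those of C57BL/6J. 129S1/SvImJ (7.96 ± 0.592 CPM, SD, n = 8) was above CAST/EiJ (6.22 ± 0.34 CPM, SD, n = 8) without overlap, and PWK/PhJ (6.02 CPM), NOD/ShiLtJ (4.68 CPM) and A/J (4.54 CPM) overlapped down the order. The log2 range was 1.49 (adjusted p = 1.02e-26). Against the other 7 strains no difference reached log2 1: it was 0.89 in WSB/EiJ (SE 0.0553, adjusted p = 1.75e-20), 0.74 in NZO/HlLtJ, 0.37 in 129S1/SvImJ, -0.81 in C57BL/6J (SE 0.0665, adjusted p = 2.07e-15), -0.56 in A/J and -0.51 in NOD/ShiLtJ. The genes most like Ccl25 were Fbxo6, a ubiquitin ligase subunit (r = 0.87), Ccdc194 (0.87) and Hapln4, a link protein of perineuronal nets (0.85). Ccdc194 had 0.957 CPM in WSB/EiJ, 0.543 in NZO/HlLtJ and 0.404 in 129S1/SvImJ, the 3 strains highest in Ccl25, and at most 0.0269 CPM elsewhere.

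Il33, a nuclear alarm protein of oligodendrocytes and astrocytes, was highest in CAST/EiJ, with 77.8, 85.4 and 118 CPM in the lowest, median and highest library. Every CAST/EiJ library was above every other library, the highest of which had 69.2 CPM in C57BL/6J. Il33 rose in CAST/EiJ against the other 7 strains (log2 1.03, SE 0.0551, adjusted p = 2.04e-23), and was 0.98 without CAST/EiJ male 3, the library at 118 CPM. C57BL/6J (63 ± 6.98 CPM, SD, n = 8) and PWK/PhJ (62.3 ± 5.3) overlapped, then WSB/EiJ (46.8 ± 4.73), NZO/HlLtJ (40.7 ± 4.1), NOD/ShiLtJ (38.5 ± 8.05) and 129S1/SvImJ (35.1 ± 3.25). A/J was lowest, at 28.4, 31.3 and 33.3 CPM (log2 -0.73, SE 0.0652, adjusted p = 7.58e-14, short of the limit of 1). The log2 range was 1.53 (adjusted p = 1.06e-25).

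The summed level of 8 astrocyte markers was also highest in CAST/EiJ (mean 2482 CPM, libraries 2333 to 2675) and stood at 2076 CPM in A/J, while that of 8 oligodendrocyte markers was lower in CAST/EiJ (mean 3213 CPM) than in A/J (4655 CPM). None of the markers had a median count of 0. Over 64 libraries r between Il33 and the astrocyte sum was 0.77, and 0.56 after removal of group means. Between Il33 and the oligodendrocyte sum it was -0.30 over 64 libraries and 0.77 after removal of group means. For the sum of 10 microglial markers the values were -0.16 and 0.60. The part of these cells in the strain difference of Il33 was not tested. The genes most like Il33 were Srd5a1, a steroid reductase (r = 0.89), Fmo5 (0.86) and Gramd3 (0.85), at 0.54, 0.45 and 0.40 without the group means.

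Cxcl12, the ligand of Cxcr4 and Ackr3 that guides migrating neurons, was higher in CAST/EiJ and PWK/PhJ than in the other strains. CAST/EiJ had a lowest library of 86.1 and a median of 102 CPM, and PWK/PhJ had 79.4, 94.8 and 102 CPM in the lowest, median and highest library. Both stood above every library of C57BL/6J, the next strain (68.9 ± 3.58 CPM, highest library 76.4). WSB/EiJ (63.2 CPM), A/J (63.1), NZO/HlLtJ (62.9), NOD/ShiLtJ (58.3) and 129S1/SvImJ (56.2) overlapped. The difference was 0.58 on the log2 scale in CAST/EiJ (SE 0.0481, adjusted p = 6.17e-16) and 0.51 in PWK/PhJ (SE 0.0486, adjusted p = 1.69e-13), under the limit of 1. The summed astrocyte markers were also highest in these strains, with means of 2482 CPM in CAST/EiJ and 2413 CPM in PWK/PhJ. They had r = 0.74 with Cxcl12 over 64 libraries and 0.24 after removal of group means. For microglial markers r was 0.05 and 0.48, for endothelial and mural markers 0.01 and 0.42, and for oligodendrocyte markers -0.47 and 0.32. The part of any of these markers in the level of Cxcl12 was not tested. Lct, Gpr155 and Atg12 were most like Cxcl12 (r = 0.87, 0.87 and 0.86), and all 3 were highest in CAST/EiJ and PWK/PhJ. After removal of group means r was 0.42, 0.41 and 0.29.

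Cxcl14, a chemokine of interneurons and epithelia, was highest in CAST/EiJ, at 114, 117 and 127 CPM. All 8 were above every other library, the highest of which had 98.2 CPM in PWK/PhJ (90.8 ± 5.01 CPM, SD, n = 8). Then came NZO/HlLtJ (84.4 CPM), WSB/EiJ (78.2), A/J (77.8), C57BL/6J (75.4), 129S1/SvImJ (69.8) and NOD/ShiLtJ (65.7). The CAST/EiJ difference was 0.62 (log2, SE 0.0365, adjusted p = 7.44e-22). With the summed astrocyte markers r was 0.73 over 64 libraries and 0.20 after removal of group means, and with the dentate granule neuron markers it was -0.57 and -0.59. With 8 interneuron markers it was -0.13 and 0.25, and their sum had its lowest mean in CAST/EiJ (779 CPM). The part of any of these markers in the level of Cxcl14 was not tested. Its closest genes were Ndrg2, an astrocyte protein (r = 0.89, 0.71 after removal of group means), Syt5 (0.88) and Cdpf1 (0.88). Cxcl12, Cxcl14 and Il33 were the most alike of the 10 across libraries, with r of 0.79 between Cxcl12 and Il33, 0.77 between Cxcl12 and Cxcl14 and 0.69 between Cxcl14 and Il33. After removal of group means the same values were 0.28, 0.09 and 0.17.

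**Figure D5:**
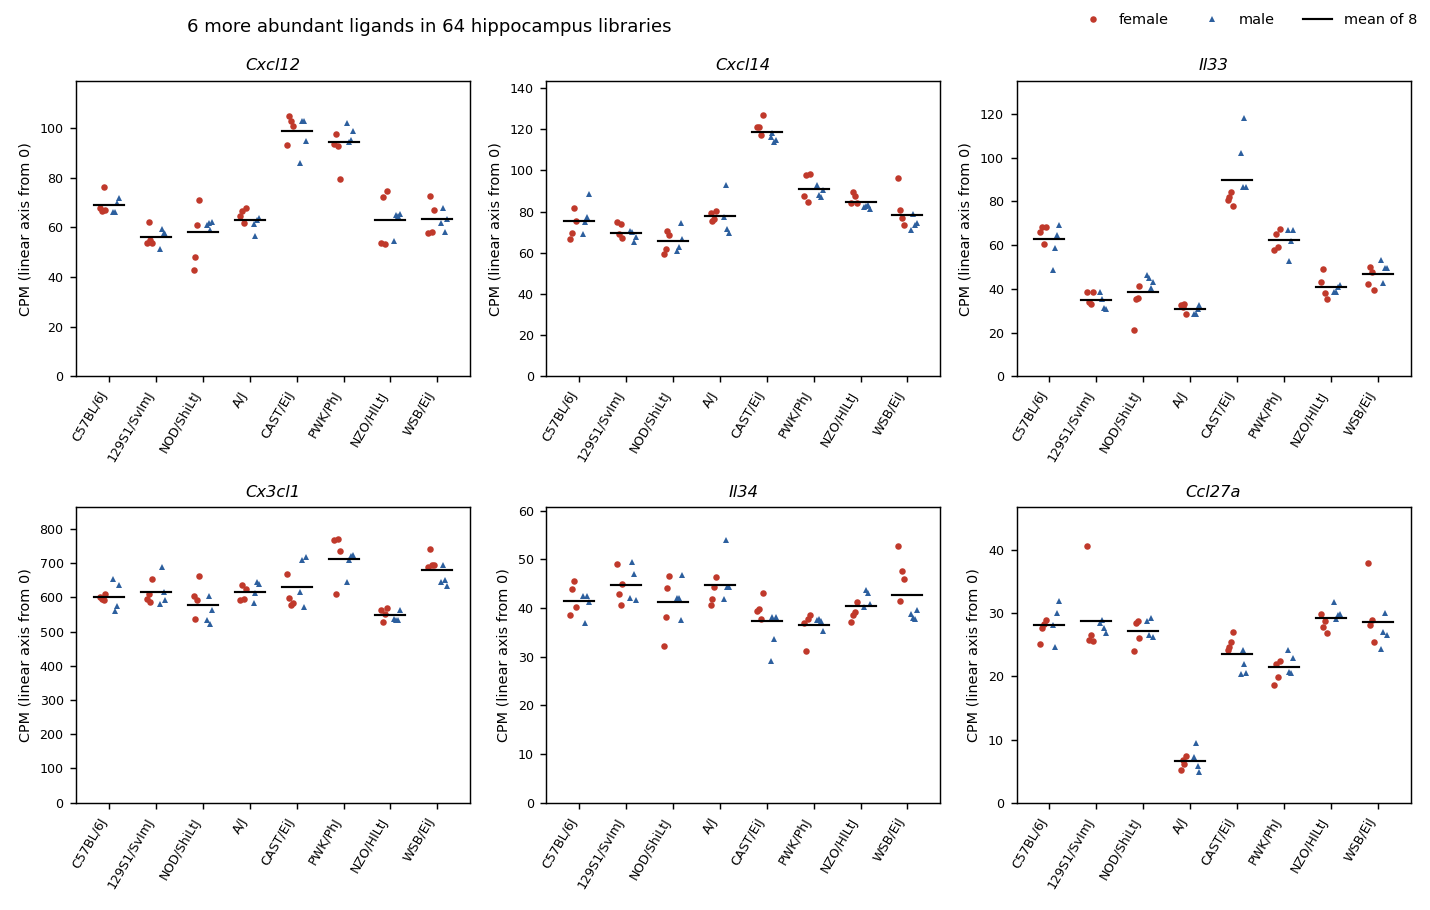
CPM (linear axis from 0) of Cxcl12, Cxcl14, Il33, Cx3cl1, Il34 and Ccl27a in 64 libraries by strain; circles are females, triangles males, and the black line is the mean of 8 libraries. CAST/EiJ is highest for Cxcl12, Cxcl14 and Il33, Cx3cl1 and Il34 lie in overlapping bands, and Ccl27a is low in A/J (4.78 to 9.39 CPM).

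Cx3cl1, called fractalkine, is a membrane-bound chemokine of neurons that binds Cx3cr1 on microglia. It varied little: PWK/PhJ had 610, 723 and 772 CPM in the lowest, median and highest library and NZO/HlLtJ, the lowest strain, had 529, 544 and 569 CPM. WSB/EiJ (681 CPM), CAST/EiJ (630), A/J (616), 129S1/SvImJ (615), C57BL/6J (603) and NOD/ShiLtJ (577) lay between, each overlapping the next. The largest differences were 0.22 in PWK/PhJ (log2, adjusted p = 1.49e-07) and -0.21 in NZO/HlLtJ (adjusted p = 4.73e-06). Its most alike gene was Dlg4, which encodes the postsynaptic protein PSD-95 (r = 0.83, 0.75 after removal of group means), followed by Slc2a6 and B4galnt1 (both 0.82). The summed level of 6 markers of CA pyramidal neurons had r = 0.64 with Cx3cl1, and 0.84 after removal of group means. That sum was 646 to 1329 CPM over the libraries, with the lowest mean in NZO/HlLtJ (676 CPM), the strain lowest in Cx3cl1. Its highest mean was in CAST/EiJ (1129 CPM), the third strain for Cx3cl1, and in PWK/PhJ, the highest for Cx3cl1, it was 922 CPM. For dentate granule neuron markers r with Cx3cl1 was -0.15 over 64 libraries and 0.28 after removal of group means. In the same order it was -0.34 and -0.39 for choroid plexus markers and -0.52 and -0.32 for meningeal fibroblast markers. For markers of ependyma it was -0.18 and -0.58. The part of any of these markers in the level of Cx3cl1 was not tested.

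Il34, a neuronal ligand of Csf1r, had the narrowest strain range of the 10. A/J (44.7 ± 4.12 CPM, SD, n = 8) and 129S1/SvImJ (44.7 ± 3.42) were highest, followed by WSB/EiJ (42.7), C57BL/6J (41.4), NOD/ShiLtJ (41.2), NZO/HlLtJ (40.5) and CAST/EiJ (37.4). PWK/PhJ was lowest, at 31.2, 37.4 and 38.5 CPM, and all neighbours in the order overlapped. The largest difference from the other 7 strains was -0.19 (log2) in PWK/PhJ. Nosip (r = 0.75), Rogdi (0.74) and Med11 (0.73) were most like it and kept 0.57, 0.69 and 0.65 after removal of group means.

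The share of the variance of log2 CPM that lay between strains described the same contrast among the 10 genes. It was 95.1% for Ccl28, 94.5% for Ccl27a, 92.7% for Ccl25, 91.9% for Il1f9, 88.3% for Il33, 87.2% for Cxcl14, 84% for Cxcl12, 80.4% for Ccl17, 62.7% for Cx3cl1 and 38.4% for Il34. The median of all tested genes was 51.1%. Ccl28, Ccl27a and Il1f9 were chosen on their strain levels in these libraries, so their shares are description only and cannot be weighed against that median. For Il34 the interaction of strain and sex took 16.9% and the spread within groups 44.1%.

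None of the 10 genes was called between females and males over all strains by edgeR's quasi-likelihood test, where 29 genes were (0.167% of those tested). Of the 10, 1 had an unadjusted p under 0.05, as did 5.3% of all genes: Il1f9, with a female minus male log2 difference of -0.30 (SE 0.127, adjusted p = 0.821). DESeq2 called 0 of the 10 as well. For the interaction of strain and sex, 0 of 10 were called by edgeR and by DESeq2 (0.046% of all genes by edgeR). By edgeR, Ccl17, Il34 and Il33 had an unadjusted p under 0.05, with adjusted p of 0.374, 0.398 and 0.398. The share of all genes at that unadjusted p was not computed for the interaction, so these 3 have no background.

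Within single strains, 0 of 80 comparisons of the 10 genes were called by edgeR, and 8 had an unadjusted p under 0.05. The share of all genes at that unadjusted p was not computed within strains, so the 8 have no background. Over all genes 0.708% were called in NOD/ShiLtJ, 0.104% in CAST/EiJ, 0.092% in A/J, 0.0633% in 129S1/SvImJ and 0.0575% in each of the other 4 strains. In NOD/ShiLtJ, Il33 had 21.2, 35.2, 35.8 and 41.1 CPM in the 4 females and 46.4, 44.9, 40.3 and 43.3 CPM in the 4 males. The sexes overlapped through 1 female at 41.1 CPM, and the log2 difference was -0.39 (SE 0.115, adjusted p = 0.0817 by edgeR and 0.0402 by DESeq2, which called it). Ccl17 in the same strain had 2.91, 1.5, 1.17 and 0.97 CPM in females and 0.901, 1.15, 0.865 and 0.492 CPM in males (log2 0.93, SE 0.294, adjusted p = 0.122). Both values moved with single libraries: without NOD/ShiLtJ female 4 both were called (-0.51 and 1.12), and without NOD/ShiLtJ female 1 they were -0.23 and 0.50, with adjusted p of 0.764 and 0.879.

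NOD/ShiLtJ female 1 was the lowest of its strain for Il33 (21.2 CPM), Cxcl12 (42.9), Il34 (32.1) and Il1f9 (0.265) and the highest for Ccl17 (2.91), Ccl28 (14.6) and Ccl25 (5.78). Its summed oligodendrocyte markers stood at 3378 CPM against 4506 to 6303 CPM in the other 7 NOD/ShiLtJ libraries, and its 5 blood markers at 63.8 CPM against 116 to 207 CPM. The part of these in its chemokine levels was not tested.

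In WSB/EiJ, Il34 had 52.8, 41.4, 47.5 and 45.9 CPM in females and 38.8, 38, 37.7 and 39.5 CPM in males. The sexes did not overlap, and the log2 difference was 0.28 (SE 0.086, adjusted p = 0.459). In CAST/EiJ, Il1f9 had 0.483, 0.385, 0.0469 and 0.213 CPM in females and 0.684, 0.605, 0.627 and 0.766 CPM in males (log2 -1.22, SE 0.413, adjusted p = 0.331). The sexes did not overlap there either, at levels of few counts. Nor did they for Il33 in CAST/EiJ, with 77.8 to 84.5 CPM in females and 86.4 to 118 CPM in males. Cxcl14 in NZO/HlLtJ had 84 to 89.6 CPM in females and 81.2 to 83.4 CPM in males, again without overlap. The share of all genes whose sexes do not overlap was not computed, so these cases have no background. In every strain the numbers in the sample titles run in separate blocks for females and males, and the strains too have blocks of their own; what the numbers mark is not given in the sources used here, and any effect of them cannot be told apart from sex or strain. In CAST/EiJ the block of the females lies far from that of the males.

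Receptors and binding partners of the 10 ligands were taken from a list of known roles, of which 19 are in the table and 16 were tested. Among strains 4 were called (27.6% of all genes were): Il1rl2, Ackr4, Ccr9 and Dpp4. All 10 ligands would have passed the filter on low counts without their 2 highest strains, and 14 of the 16 receptors too, all but Ccr9 and Ccr10. The median log2 range of the 16 was 0.67, and that of all tested genes 0.55. Of the 16, 14 had an adjusted p under 0.05 at any range, as did 89.2% of all genes. The exceptions were Ccr10, the shared receptor of Ccl27a and Ccl28 (0.90, adjusted p = 0.154), and Sdc1, a proteoglycan that binds Il34 (0.59, adjusted p = 0.255).

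Il1rl2, the receptor of Il1f9, had the widest range (log2 3.04, adjusted p = 1.19e-16). It rose in NOD/ShiLtJ (0.85 ± 0.167 CPM, log2 1.31, SE 0.155, adjusted p = 4.08e-10) and NZO/HlLtJ (0.838 ± 0.218 CPM, log2 1.28, SE 0.157, adjusted p = 1.42e-09), where 2.75% and 2.67% of all genes were called higher. It fell in CAST/EiJ (0.129 ± 0.0564 CPM, log2 -1.81, SE 0.243, adjusted p = 4.46e-09) and PWK/PhJ (0.103 ± 0.0792 CPM, log2 -2.16, SE 0.26, adjusted p = 2.47e-10), where 5.22% and 5.6% of all genes were called lower. CAST/EiJ and PWK/PhJ were also the strains lowest in Il1f9 (0.476 and 0.152 CPM), whereas in WSB/EiJ, the strain highest in Il1f9, the receptor stood at 0.512 ± 0.198 CPM. Il1rap, the second chain of the receptor, had a log2 range of 0.31.

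Ccr9, the receptor of Ccl25, had a log2 range of 2.37 (adjusted p = 5.39e-05) at levels of 0.0668 to 0.365 CPM, with a median count of 4. Only 5 libraries, all of NOD/ShiLtJ and NZO/HlLtJ, reached the minimum of the filter, so Ccr9 was tested through the strains in which it was high and its call supports nothing by itself. The fitted differences were positive in NOD/ShiLtJ (1.24, SE 0.304, adjusted p = 0.00082) and NZO/HlLtJ (1.18, SE 0.31, adjusted p = 0.00173) and negative in 129S1/SvImJ (-1.48, SE 0.462, adjusted p = 0.00997; 1.51% called lower). Ccl25 itself was high in NZO/HlLtJ and 129S1/SvImJ and low in NOD/ShiLtJ. Ackr4, which scavenges Ccl25 and related chemokines, fell in C57BL/6J (0.244 ± 0.15 CPM, log2 -1.83, SE 0.247, adjusted p = 1.45e-08), the strain lowest in Ccl25. Dpp4, a peptidase that cleaves Cxcl12, ranged from 0.677 CPM in PWK/PhJ to 1.53 CPM in C57BL/6J (log2 range 1.18, adjusted p = 1.46e-06).

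The receptors of the abundant ligands changed less. The log2 range was 0.66 for Cx3cr1, 0.73 for Cxcr4, 0.68 for Ackr3 and 0.59 for Csf1r, with adjusted p from 2.14e-16 to 5.82e-10. Cx3cr1 was highest in NOD/ShiLtJ (65.1 ± 8.47 CPM) and lowest in CAST/EiJ (41.3 ± 5.99 CPM), and Cxcr4 was highest in WSB/EiJ (4.47 CPM) and lowest in C57BL/6J (2.68 CPM). Neither order was that of the ligand. The scavenger Ackr2 (0.89), the second Csf1r ligand Csf1 (0.62), the Il34 binding phosphatase Ptprz1 (0.24) and the Cx3cl1 sheddases Adam10 (0.21) and Adam17 (0.58) were not called either. Ccr3 was at 0 in 40 libraries, Ccr4 at 0 in 61 and Il1rl1, the Il33 receptor, at 0 in 11 with at most 13 counts, and none of these 3 was tested.

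Of 72 other chemokine and interleukin genes in the table, 20 were tested and 16 called among strains, where 27.6% of all genes were called, with a median log2 range of 1.95 over the 20 and 0.55 over all genes. Most of the 72 were too low to be tested. Of the 20, 6 would have failed the filter without their 2 highest strains (Ccl11, Ccl21b, Ccl22, Cxcl10, Il11 and Il25), so they were tested through the strains in which they were high, and neither the count nor the median is support for a wider range in these ligands. The widest were Ccl19 (6.56), Ccl21b (6.48), Ccl9 (5.02), Il1a (4.28), Ccl11 (3.85) and Ccl6 (3.40). Ccl19, which attracts dendritic cells and T cells, stood at 22.3 ± 1.94 CPM in NOD/ShiLtJ and 21.8 ± 1.35 CPM in NZO/HlLtJ, the strains with high Gm20878, at 8.3 ± 1.33 CPM in CAST/EiJ and at 0.233 to 1.25 CPM elsewhere. Ccl19, Ccl21b and Ccl27a belong to a cluster on chromosome 4 whose genes have near-identical copies, and Ccl21b was at 0 in 50 of 64 libraries, so these 2 values are uncertain. Ccl9 and Ccl6, myeloid chemokines, were high in WSB/EiJ (6.42 and 2.98 CPM). Ccl9 was also high in CAST/EiJ (5.53 CPM) and Ccl6 in NZO/HlLtJ (3.64 CPM). Il1a was lowest in PWK/PhJ (0.0424 CPM), and Ccl11, the eosinophil chemokine, was highest in CAST/EiJ (0.566 CPM) and PWK/PhJ (0.411 CPM).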

How the data were processed

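RNA was measured in 64 hippocampus libraries prepared with an Illumina TruSeq kit from column-purified total RNA, per the labels' protocols. The deposited table holds whole-number counts per Ensembl gene, made by the authors on GRCm39, per the submitters' processing notes; the table is named for Ensembl release 105. Aligner, counter and strand setting are not given in the sources used here. Symbols were found for 32146 of 32227 identifiers. Strain and sex came from the labels, and library numbers within a group only name libraries in order of deposition.

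The members and lists were chosen with earlier results of these data known. Genes with low counts were dropped with filterByExpr (minimum count 10, minimum total 15), which left 17382. Counts were scaled by TMM and fitted with edgeR 4.0.16 (R 4.3.3, limma 3.58.1) by robust quasi-likelihood with 16 group means and 48 residual degrees of freedom, and p-values were adjusted by Benjamini-Hochberg over all tested genes. Strain calls needed an adjusted p under 0.05 and a log2 difference or range of at least 1, and calls of sex an adjusted p under 0.05. The script was checked on simulated counts. Depth limits the lowest genes, where 1 count sets the step. Alternatives were DESeq2 1.42.0, its size factors, other filters and fold limits, an additive model, choroid plexus and meningeal marker terms, and libraries left out. Correlations are Pearson's on log2 CPM with a prior count of 2. Named genes were the 10 members, the tested receptors, the 3 official protein-coding genes most like each member, tested neighbours, the Ccl27a copies and the 6 other ligands of widest range. Ccl22, a neighbour of Cx3cl1, was also named. Sequences came from GENCODE M21 and RefSeq, both on builds of GRCm38, and no coordinates were converted.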

Additional observations from a re-analysis of the deposited data

Results flagged for a closer look

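In groups of 4 libraries of a strain and sex, 9 of 160 groups had a library whose gap to its nearest neighbour exceeded Dixon's critical value as a share of the group's range, in 8 libraries in all. Chance alone gives about 1 in 20 such groups. Female 1 of 129S1/SvImJ, which also correlated less with its group, was high in Ccl27a (40.7 CPM, the others 25.6 to 26.6) and in Ccl25 (9.21 CPM, the others 7.7 to 7.84). Female 3 of WSB/EiJ had 0.812 CPM of Ccl28, where the others had 0.186 to 0.289. Cx3cl1 was high in NZO/HlLtJ male 4 (563 CPM, the others 533 to 538) and in WSB/EiJ female 2 (742 CPM, the others 688 to 695). Cxcl12 was high in C57BL/6J female 3 (76.4 CPM, the others 66.7 to 67.7) and 129S1/SvImJ female 2 (62 CPM, the others 53.6 to 55), and low in NZO/HlLtJ male 1 (54.6 CPM, the others 64.4 to 65.3). Il34 was low in PWK/PhJ male 4 (35.3 CPM, the others 37.4 to 37.7). The Cx3cl1 and Il34 gaps are small beside the level, since the other 3 libraries of those groups lie close together.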

How the results depend on the processing

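No value for the 10 genes changed sign under a call. With DESeq2's size factors, the additive model (for the results it gives) and the meningeal marker term every result kept its side of the threshold. Every result on the 10 genes also did so without 3 libraries together: A/J male 2, 129S1/SvImJ female 1 and C57BL/6J male 4. Members called among strains numbered 3, and 5 with a log2 limit of 0.5 and 1 with a limit of 2. When only genes with a mean of at least 50 counts were tested, Ccl17 dropped out and Ccl25 and Il33 stayed called. Calls in a strain against the others numbered 4, and 15 at a limit of 0.5, 1 at a limit of 2 and 1 when only genes with a mean of at least 50 counts were tested, which leaves out Ccl17. Receptors called numbered 4, and 11 at a limit of 0.5 and 0 at a mean of at least 50 counts. Other ligands called numbered 16, and 37 with no filter, 1 at a mean of at least 50 counts and 9 at a limit of 2. These shifts follow from the genes tested or the limit used. DESeq2 called 1 member by sex within a strain, Il33 in NOD/ShiLtJ; the cause was not tested. Over all genes, calls among strains numbered 4792, and 7325 with no filter, 1711 at a mean of at least 50 counts, 8786 at a limit of 0.5 and 2101 at a limit of 2. Per strain against the others they ran from 623 (A/J) to 1625 (PWK/PhJ), from 1138 to 2914 with no filter, from 143 to 456 at a mean of at least 50 counts, from 1645 to 3543 at a limit of 0.5 and from 146 to 555 at a limit of 2. DESeq2 called 47 genes by sex (29 by edgeR) and 43 for the interaction (8 by edgeR), and 15 were called for the interaction without the 3 libraries named above. With single libraries left out, members called among strains stayed at 3, calls in a strain against the others ran from 3 to 4, members called by sex and for the interaction stayed at 0 and members called by sex within a strain ran from 0 to 2. Receptors stayed at 4 and other ligands ran from 16 to 18. Over all genes, calls by sex ran from 25 to 47, the latter without 129S1/SvImJ female 1, and calls for the interaction from 5, without CAST/EiJ female 3, to 12, without CAST/EiJ female 1. No paired analysis was possible because the library numbers are names in order of deposition and tie no libraries of different groups together. Depth limits Ccl28 in CAST/EiJ, Ccl17 in C57BL/6J and Il1f9 in PWK/PhJ, where single libraries had 1 count. Near-identical copies limit Ccl27a, and the strand setting, which is not given, limits Il1f9. It also limits, over smaller shares of their 50-base stretches, Ccl25 (2.06% in Elavl1) and Il34 (1.3% in Gm15895).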
